A study of Mus musculus with 6 samples.

Results

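A set of 9 genes of low read count was followed, each with fewer reads in 3 mouse spermatogonial stem cell lines labelled Ephb2-KO than in 3 wild-type (WT) lines. They are Ccdc172, A230065H16Rik, Fxyd2, 1700034O15Rik, Cdc20b, Kdm6bos, Onecut2, C920025E04Rik and Trpc4, which makes 9 of the 41053 genes counted. They were picked for that difference in read count between the groups, so the difference itself is given as a description, without a test, and supports nothing. The lines were cultures of adult spermatogonial stem cells, which sustain sperm production in the testis, grown in a StemPro-34-based medium with growth factors. Cells of both groups received by electroporation a plasmid encoding green fluorescent protein. In the Ephb2-KO group the plasmid came with a guide RNA against Ephb2, a receptor tyrosine kinase that binds ephrins on neighbouring cells, and in the WT group without it. Fluorescent cells were sorted and subcloned into 3 lines per group, and each line gave 1 library of polyadenylated RNA. Lines 1 and 2 were taken at passage 20 and line 3 at passage 18, alike for WT and Ephb2-KO. Each group therefore stands for 3 subclones, and no shared parent culture of same-numbered lines is recorded.

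The 9 genes belong to several kinds of cell function. Ccdc172 encodes a coiled-coil protein of the sperm flagellum that binds the filament protein tektin-2. The gene listed as 1700034O15Rik is now called Llcfc1 and encodes a sperm protein needed for fusion with the egg, and Cdc20b encodes a relative of the cell cycle activator CDC20 that is known from multiciliated cells. Fxyd2 is a small membrane subunit that regulates the sodium pump, best known in kidney, and Trpc4 forms a calcium-permeable cation channel. Onecut2 is a CUT-homeobox transcription factor of liver and neurons, and Kdm6bos is a noncoding RNA on the strand opposite Kdm6b, a demethylase of histone H3 lysine 27. A230065H16Rik, now Lbhd2, encodes a protein with an LBH domain. C920025E04Rik, now H2-T-ps, is a gene of the major histocompatibility class Ib region that the GENCODE annotation calls a pseudogene. Spermatogonial stem cells themselves carry no flagella, which germ cells build only after meiosis.

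One of the genes, Cdc20b, hosts the miR-449 microRNAs in its body, and their mature sequences are shown because they come from the same stretch of genome as the Cdc20b reads below. Capitals mark the seed, bases 2 to 8, which is the part of a microRNA that pairs with its targets. Both sequences (RefSeq, GRCm38.p6, plus strand, 5′ to 3′) carry the same seed; miR-449c-5p lies at chr13:113036008-113036028 and miR-449a-5p at chr13:113037549-113037570.
mmu-miR-449c-5p: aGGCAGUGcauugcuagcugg
mmu-miR-449a-5p: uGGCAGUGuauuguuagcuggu
The rows of the 3 miR-449 hairpins held 0 counts in all 6 libraries. Libraries of polyadenylated RNA do not capture mature microRNAs, so these rows say nothing of miR-449 levels.

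RefSeq (GRCm38.p6) had an entry for the start region of 6 of the 9 genes. The 250 bases before the start are shown for 4 of them, because these genes were low together in the same 3 libraries and a reader can see what their starts do and do not share. Capitals mark matches on either strand to TATAAA (the TATA box), CCAAT (the box bound by NF-Y) or GGGCGG (the GC box), none of which overlapped another. The windows are chr19:58511735-58511984 for Ccdc172, chr12:111406559-111406808 for A230065H16Rik, chr6:41684181-41684430 for 1700034O15Rik and chr3:54155807-54156056 for Trpc4, all on the plus strand.
Ccdc172: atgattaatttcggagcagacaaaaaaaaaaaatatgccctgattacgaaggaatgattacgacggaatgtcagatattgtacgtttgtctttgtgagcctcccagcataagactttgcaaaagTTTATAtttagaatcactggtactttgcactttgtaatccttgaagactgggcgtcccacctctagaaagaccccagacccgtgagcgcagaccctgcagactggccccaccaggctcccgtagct
A230065H16Rik: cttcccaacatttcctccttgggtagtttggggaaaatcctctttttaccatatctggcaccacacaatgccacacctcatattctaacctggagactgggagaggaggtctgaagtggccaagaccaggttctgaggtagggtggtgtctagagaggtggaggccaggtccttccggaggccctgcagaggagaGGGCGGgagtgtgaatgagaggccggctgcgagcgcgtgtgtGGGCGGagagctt
1700034O15Rik: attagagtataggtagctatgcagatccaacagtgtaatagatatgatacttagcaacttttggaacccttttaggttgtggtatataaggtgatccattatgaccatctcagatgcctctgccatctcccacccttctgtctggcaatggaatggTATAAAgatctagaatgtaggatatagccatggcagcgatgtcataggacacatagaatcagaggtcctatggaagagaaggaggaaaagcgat
Trpc4: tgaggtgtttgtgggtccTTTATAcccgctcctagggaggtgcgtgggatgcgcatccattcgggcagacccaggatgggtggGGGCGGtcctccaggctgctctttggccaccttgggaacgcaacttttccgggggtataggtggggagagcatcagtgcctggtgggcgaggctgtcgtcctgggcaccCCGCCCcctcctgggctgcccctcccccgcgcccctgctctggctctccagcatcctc
No motif was common to the 6 windows. TATAAA was found in 3 of them (Ccdc172, 1700034O15Rik and Trpc4), against 12.4% of all 32851 promoter windows of this length, and GGGCGG in 3 (A230065H16Rik, Cdc20b and Trpc4), against 32.7%. CCAAT was found in 1, that of C920025E04Rik, against 33.8%. TGACGTCA, the palindrome bound by CREB and its testis relative CREM, was in 0 of the 6 and in 1.55% of all windows. The windows also differed in CpG dinucleotides, from 2 in 1700034O15Rik and 5 in C920025E04Rik to 12 in Trpc4 and 18 in Cdc20b, where the median window held 6. For Cdc20b the window (chr13:113035129-113035378) precedes the RefSeq start. It lies inside the gene body used for counting, which starts at 113035111. A match to these letters is a description of the window and not a binding site.

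Library totals ran from 21772404 to 34047758 counts, and 3 counts correspond to 0.0803 to 0.147 CPM (read counts divided by the scaled size of the library). Ephb2 mRNA was no lower where the guide had been used: it stood at 21.3, 27.1 and 10.8 CPM in WT replicates 1, 2 and 3 and at 37.1, 16.5 and 13.4 CPM in the others (log2 fold change 0.18, SE 0.50, edgeR quasi-likelihood adjusted p = 1.0). The lines are named by their labels for that reason. All 12 markers of undifferentiated spermatogonia were measured and passed the filter on low counts, with summed levels of 1667 to 3047 CPM in WT libraries and 1457 to 3098 CPM in the others. Summed levels of 10 fibroblast markers were 3005, 4160 and 16853 CPM in the WT lines 1, 2 and 3 and 4751, 5271 and 19874 CPM in the Ephb2-KO lines, higher in 3 of 3 same-numbered pairs. The 8 meiotic and haploid germ cell markers summed to 33.3, 1.25 and 1.53 CPM in WT libraries and to 61.2, 1.85 and 0.884 CPM in the others, with Prm1 and Tnp2 at 0 throughout. The sum was lower in 1 of 3 pairs. Only 1 of the 8 was tested, and its log2 fold change was -0.38, or -0.36 with the replicate number as a block. Sertoli markers summed to 94.4, 127 and 106 CPM in the WT lines 1, 2 and 3. In the others they summed to 94.7, 138 and 134 CPM. Macrophage markers summed to 7.90, 20.8 and 7.39 CPM against 7.05, 16.7 and 6.83 CPM, lower in 3 of 3 pairs. Only 2 of the 5 macrophage markers were tested, and those went in opposite directions. Their median log2 fold change was 0.21, or 0.15 with the replicate block. Epithelial markers summed to 135, 172 and 79.0 CPM against 96.2, 182 and 65.8 CPM, lower in 2 of 3 pairs, and all 4 of them that were tested lay below a log2 fold change of 0 (median -0.33, and -0.39 with the replicate block). The epithelial list was Epcam, Cdh1, Krt8, Krt18, Krt19 and Krt7, and which cells gave these reads was not tested. Krt18, one of those tested, stood at a log2 fold change of -4.35 without the block. Endothelial markers summed to between 6.64 and 15.5 CPM in all libraries. The part of these cells in the values below was not tested, and in bulk RNA fewer cells of a type and less RNA per cell cannot be told apart.

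In every one of the 9 genes the 3 WT libraries lay above the 3 labelled Ephb2-KO, as the choice of the genes required. Their counts together came to between 557 and 632 reads in each WT library and to between 42 and 60 reads in each library labelled Ephb2-KO. Separate CPM ranges in that direction were found in 1.55% of the 15263 genes that passed the filter (237 genes). All 9 passed it through the WT libraries, of which all 3 reached its cutoff for each gene. In 5 of them (Ccdc172, A230065H16Rik, Fxyd2, 1700034O15Rik and Trpc4) no Ephb2-KO library reached it, and in the others only 1 did. With edgeR's quasi-likelihood test 0 of the 9, and 0% of all tested genes, passed an adjusted p under 0.05. Over all tested genes, 32 (0.210%) had an unadjusted p under 0.05 in that edgeR test, and DESeq2 called 4 genes. With the replicate number as a block 4 genes passed, 0.0262% of those tested. In the blocked edgeR fit 987 genes (6.47%) had an unadjusted p under 0.05. A count of 0 without the block does not show that the groups were alike. Both DESeq2 and the blocked fit had 2 of the 9 among their calls, Ccdc172 and A230065H16Rik. These calls come from the contrast that chose the genes, and nothing is read from them.

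**Figure D1:**
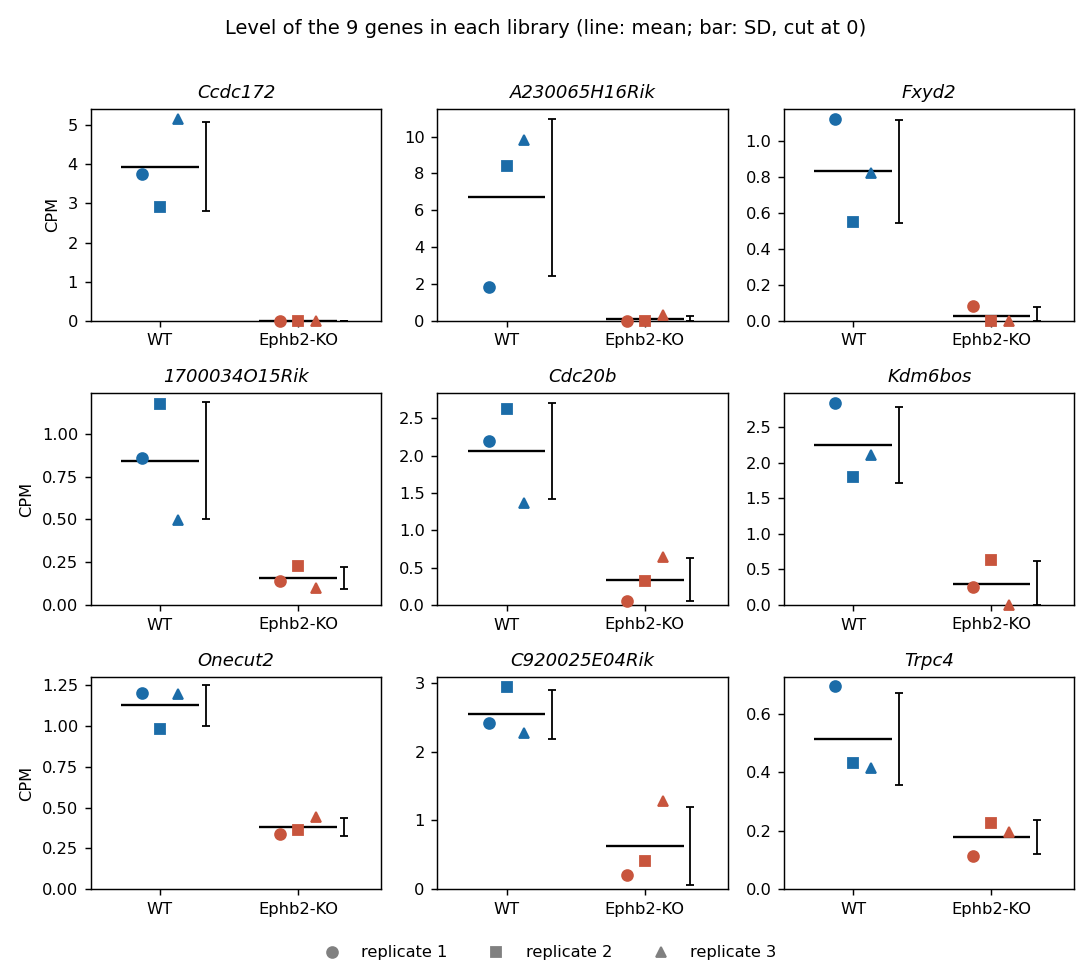
Level of each of the 9 genes in CPM (vertical axes, linear, from 0) in the 3 WT (blue) and 3 Ephb2-KO (red) libraries, with symbols for replicates 1 to 3, a line at the group mean and a bar of 1 SD cut at 0. The groups do not overlap in any panel; Ccdc172 is at 0 in all 3 Ephb2-KO libraries, and C920025E04Rik comes closest as a ratio (1.78), with Ephb2-KO replicate 3 at 1.28 CPM and WT replicate 3 at 2.27 CPM.

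Among the genes of sperm and cilia, Ccdc172 (chromosome 19, 58512002 to 58553085, plus strand) showed the plainest contrast. It had 140, 74 and 125 counts in WT replicates 1, 2 and 3, or 3.75, 2.90 and 5.16 CPM, and 0 counts in each library labelled Ephb2-KO. Reads were thus present in every WT line and undetected in every other line. The means were 3.94 ± 1.14 CPM (SD, n = 3) and 0, at least 101-fold lower when the Ephb2-KO group is set at a floor of 3 counts over its libraries. Floors and intervals here cover counting error only.

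The sperm fusion gene 1700034O15Rik (chromosome 6, 41684431 to 41685717, plus strand) had 32, 30 and 12 counts in WT replicates 1, 2 and 3 and 5, 5 and 2 in the Ephb2-KO libraries. In CPM these were 0.857, 1.18 and 0.495 against 0.141, 0.225 and 0.0982. Replicate 3 was the lowest line in both groups, so the ratio was similar in each same-numbered pair, at 6.08, 5.22 and 5.04. Pooled counts of 74 and 12 gave a level 5.53-fold lower (95% counting interval 2.98 to 11.2).

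Cdc20b (chromosome 13, 113035111 to 113091195, plus strand) had 82, 67 and 33 counts in the WT lines 1, 2 and 3 and 2, 7 and 13 in the Ephb2-KO lines 1, 2 and 3. Its levels were 2.20, 2.63 and 1.36 CPM against 0.0564, 0.315 and 0.638 CPM. Number 3 was the lowest WT line and the highest line labelled Ephb2-KO: WT replicate 3 and Ephb2-KO replicate 3 came closest, 2.13-fold apart, while the replicate 1 lines were 39.0-fold apart. The pooled level was 7.41-fold lower (95% counting interval 4.75 to 12.1), and it averages over lines that differed widely.

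Of the membrane proteins, the sodium pump subunit gene Fxyd2 (chromosome 9, 45403138 to 45410278, plus strand) had 42, 14 and 20 counts in WT replicates 1, 2 and 3. In Ephb2-KO replicates 1, 2 and 3 it had 3, 0 and 0 counts. The levels were 0.833 ± 0.288 CPM and 0.0282 ± 0.0488 CPM (SD, n = 3). Only Ephb2-KO replicate 1 held any reads, and the pooled ratio of 22.7 had a wide counting interval of 7.48 to 113.

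The channel gene Trpc4 (chromosome 3, 54156057 to 54318470, plus strand) was the gene with the fewest WT reads, 26, 11 and 10 in replicates 1, 2 and 3, against 4, 5 and 4. Its levels were 0.696, 0.431 and 0.413 CPM against 0.113, 0.225 and 0.196 CPM. WT replicate 1 stood above the other WT lines, and replicate 1 was the lowest of the lines labelled Ephb2-KO. The pooled level was 3.24-fold lower (95% counting interval 1.72 to 6.53), with pair ratios of 6.18, 1.91 and 2.10.

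The transcription factor gene Onecut2 (chromosome 18, 64340364 to 64398488, plus strand) varied least within the groups. It had 45, 25 and 29 counts in WT replicates 1, 2 and 3 and 12, 8 and 9 counts in the others, or 1.21, 0.980 and 1.20 CPM against 0.338, 0.360 and 0.442 CPM. Means of 1.13 ± 0.128 and 0.380 ± 0.0547 CPM (SD, n = 3) put the coefficient of variation of the WT lines at 11.3%, the lowest among the 9. Onecut2 was lower rather than undetected: every library held reads, and the pooled level was 3.06-fold lower (95% counting interval 2.005 to 4.80).

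Kdm6bos, the antisense transcript of Kdm6b (chromosome 11, 69401513 to 69402700, plus strand), had 106, 46 and 51 counts in WT replicates 1, 2 and 3 and 9, 14 and 0 counts in Ephb2-KO replicates 1, 2 and 3. These were 2.84, 1.80 and 2.10 CPM against 0.254, 0.630 and 0 CPM. Ephb2-KO replicate 3 held no reads while replicate 2 held the most. The pooled level was 7.91-fold lower (95% counting interval 5.13 to 12.8). Of its 2 exons the first (69401513 to 69401997) covers Kdm6b exons over 286 of 485 bases, and the second (69402346 to 69402700) covers them over 0 of 355. Reads were counted by strand, which keeps the partners apart.

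A230065H16Rik (chromosome 12, 111406809 to 111412077, plus strand) reached the highest level of the 9 and varied most among WT lines. It had 69, 215 and 238 counts in WT replicates 1, 2 and 3 and 0, 0 and 6 counts in Ephb2-KO replicates 1, 2 and 3. In CPM the WT lines held 1.85, 8.43 and 9.82, a coefficient of variation of 63.6%, and the only Ephb2-KO line with reads held 0.295. WT replicate 1 stood far below the other WT lines but still 6.27-fold above the highest line labelled Ephb2-KO. Pooled counts of 522 and 6 gave a ratio of 78.0 (95% counting interval 35.6 to 213).

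C920025E04Rik (chromosome 17, 36109234 to 36111658, minus strand) had 90, 75 and 55 counts in the WT lines 1, 2 and 3 and 7, 9 and 26 in the Ephb2-KO lines 1, 2 and 3. The levels were 2.41, 2.94 and 2.27 CPM against 0.197, 0.405 and 1.28 CPM. As in Cdc20b, Ephb2-KO replicate 3 was the highest of its group, and pair ratios ran from 12.2 in pair 1 and 7.25 in pair 2 to 1.78 in pair 3. The pooled level was 4.69-fold lower (95% counting interval 3.36 to 6.70). Class Ib genes have near-identical copies, and reads that map to several copies were not counted, so these values are uncertain. It overlaps Gm7030 on the same strand, which had 0 counts in all libraries. The effect of that overlap on either count was not tested.

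Levels can be set against each other only per length of exon. In WT lines the order per kilobase was A230065H16Rik (10.2 ± 6.48 CPM per kb, SD, n = 3), Ccdc172 (3.62 ± 1.05), Kdm6bos (2.68 ± 0.635), C920025E04Rik (2.38 ± 0.331), Fxyd2 (1.32 ± 0.456), 1700034O15Rik (1.14 ± 0.459), Cdc20b (1.13 ± 0.352), Trpc4 (0.148 ± 0.0457) and Onecut2 (0.0842 ± 0.00954). Neighbours in this order overlapped among WT lines except between C920025E04Rik and Fxyd2, between Cdc20b and Trpc4, and between Trpc4 and Onecut2. Against a median of 6.17 CPM per kb over tested genes, only A230065H16Rik lay above the middle, with 61.6% of tested genes below it in WT lines and 2.73% in lines labelled Ephb2-KO. For Ccdc172 those shares were 38.8% and 0%, and for Onecut2, whose exons span 13391 bases, 0.858% and 0.0459%. The genes thus ran from mid-range expression to the very bottom of what was tested.

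The line that stood highest was not the same for the 9 genes. Replicate 1 was the highest WT line for 4 genes, replicate 2 for 3 and replicate 3 for 2. Among lines labelled Ephb2-KO, Ccdc172 was at 0 in all, and the highest was replicate 1 for 1 gene, replicate 2 for 3 and replicate 3 for 4. Across the 36 pairs of these genes, Pearson's r of log2 CPM over 6 libraries ran from 0.510 to 0.987, which the shared group difference fixes. With the group means taken out, r ran from -0.82 to 0.92 with a median of 0.0115, and 18 of 36 pairs lay above 0. Cdc20b and C920025E04Rik were the pair at 0.921, and Ccdc172 and 1700034O15Rik the pair at -0.82. These are descriptions over 6 libraries that share depth and group.

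The 9 genes were also set among the other genes whose CPM ranges did not overlap. Among all tested genes with separate CPM ranges, 40 were at least 2-fold lower and 14 at least 2-fold higher by the ratio of mean CPM, and 9 of the 40 are the genes described here. At 4-fold there were 10 lower and 1 higher, and 7 of the 10 belong to the 9. At 16-fold there were 5 lower and 0 higher, 3 of them (Ccdc172, A230065H16Rik and Fxyd2) among the 9. The 9 genes supply most of the counts they are read against at 4-fold, so no more than the counts is given. All genes past 4-fold had mean levels at or below 3.40 CPM, the highest mean of the 9 over the 6 libraries.

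**Figure D2:**
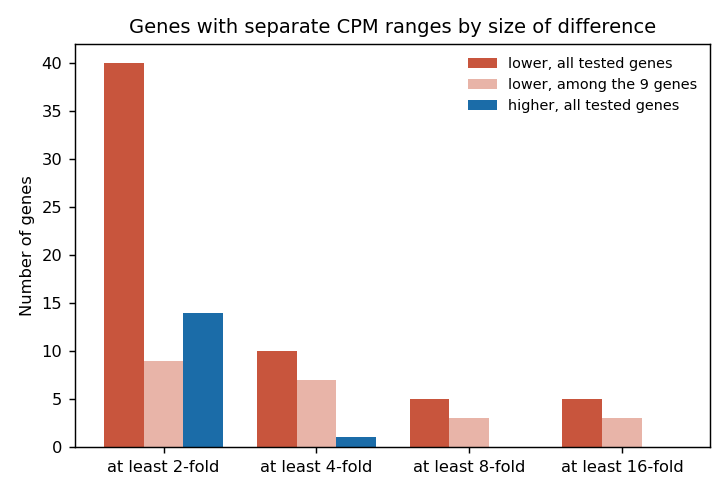
Number of tested genes (vertical axis, from 0) whose WT and Ephb2-KO ranges of CPM do not overlap, by least fold difference (horizontal axis), with dark red for lower in Ephb2-KO, pale red for those of the lower genes that are among the 9, and blue for higher in Ephb2-KO. At 4-fold the bars stand at 10, 7 and 1, and at 16-fold at 5, 3 and 0.

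Passage gave a contrast that the choice of genes did not use. Replicate 3 of both groups was at passage 18 and the others at passage 20, so passage and replicate 3 cannot be told apart. With the group in the model, edgeR's quasi-likelihood test called 3935 genes between the passages, 25.8% of those tested, and 0 of the 9. The 9 passed the filter through their WT libraries, and their Ephb2-KO libraries held few reads. In the Ephb2-KO lines 1, 2 and 3, Fxyd2 had 3, 0 and 0 counts and A230065H16Rik had 0, 0 and 6. The 0 of 9 is therefore not read against the share over all genes. A230065H16Rik was the highest of the 9 at passage 18, by a log2 difference of 1.73 (SE 0.95, adjusted p = 0.219), followed by C920025E04Rik at 0.93 (SE 0.64, adjusted p = 0.318) and Ccdc172 at 0.62 (SE 0.59, adjusted p = 0.487). The Ccdc172 value compares WT lines alone, since no line labelled Ephb2-KO held reads. Kdm6bos, at -1.02 (SE 0.88, adjusted p = 0.426), and 1700034O15Rik, at -0.96 (SE 0.60, adjusted p = 0.270), were lowest. The other 4 lay between -0.33 (Fxyd2) and 0.43 (Cdc20b), with adjusted p from 0.737 to 0.872. Of the 8 genes with reads in both groups, 4 lay above 0 and 4 below, with a median of 0.0269 against -0.0640 over all tested genes. Single libraries moved these values widely: without WT replicate 3, A230065H16Rik went to 6.08 and Kdm6bos to -6.62, and without Ephb2-KO replicate 3 they went to 0.94 and -0.14. The call for A230065H16Rik depended on the processing: it passed with DESeq2 (log2 difference 2.37, adjusted p = 0.0454), without the filter on low counts (1.71, adjusted p = 0.00883) and without WT replicate 2 (3.00, adjusted p = 0.0412). Standard errors ran from 0.47 to 0.95 on the log2 scale, and a p that missed the threshold does not show that the passages were alike.

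**Figure D3:**
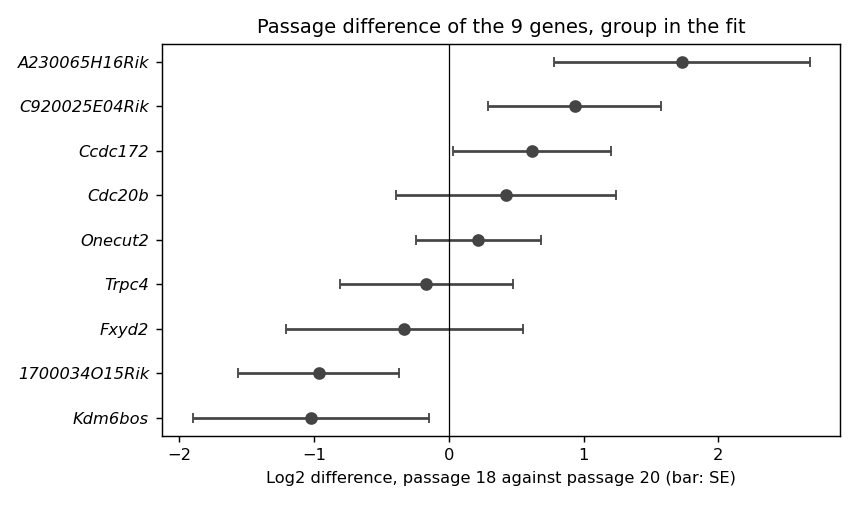
Log2 difference between passage 18 and passage 20 (horizontal axis) for each of the 9 genes, from the fit with the group as a covariate, with points for the estimate and bars of 1 SE on each side. A230065H16Rik lies highest at 1.73 and Kdm6bos lowest at -1.02, and the value of Ccdc172 comes from WT lines alone.

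The genomic surroundings of the 9 genes were measured independently of the choice. The genes lie on 9 different chromosomes. Within 500 kb of their bodies lie 337 other genes, of which 145 were tested. The median log2 fold change of these 145 was 0.0263, with 79 above 0 and 66 below, against 0.01 over all tested genes. EdgeR's quasi-likelihood test called 0 of the 145, with or without the replicate block, and DESeq2 called 0. At an unadjusted p under 0.05 there were 0 without the block and 14 with it, where 6.47% of all genes had such a p with the block, and the smallest blocked adjusted p was 0.741. Ranges separate and lower were found for 2 of the 145, 1.38%, close to the 1.55% over all genes. The 3 that lay beyond 2-fold, Mpzl2 (-1.13) near Fxyd2, St8sia3 (-1.11) near Onecut2 and Tnfsf12Tnfsf13 (1.68) near Kdm6bos, had ranges that overlapped between the groups.

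**Figure D4:**
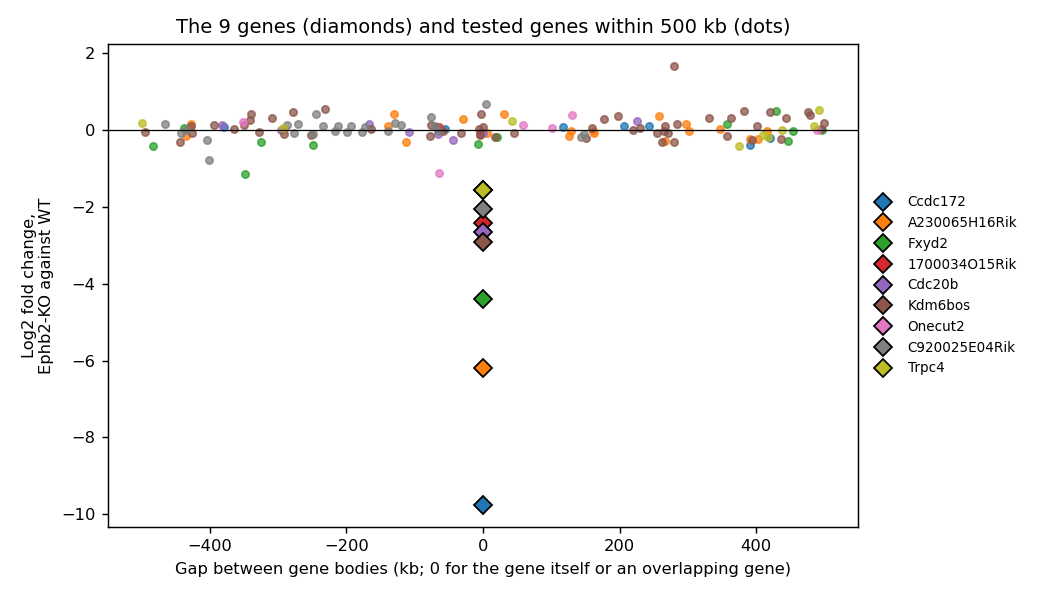
Log2 fold change, Ephb2-KO against WT (vertical axis), of the 9 genes (diamonds at 0) and of 145 tested genes within 500 kb (dots), by the gap between gene bodies in kb (horizontal axis, negative toward lower coordinates), coloured by the gene they lie near. The dots run from -1.13 to 1.68 around a median of 0.0263, and the diamonds, which were chosen on this value, from -9.76 to -1.55.

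The nearest tested genes show this gene by gene, with log2 fold changes and SEs from the fit without the replicate block unless stated. Those SEs include the spread between replicate numbers. Beside Ccdc172, which had no reads in the lines labelled Ephb2-KO, lies Gfra1, the receptor for GDNF and a marker of spermatogonial stem cells, 56.1 kb away. Gfra1 had 5472, 6269 and 2424 counts in WT replicates 1, 2 and 3 and 5279, 5157 and 2538 in the others, a log2 fold change of 0.04 (SE 0.38). On the far side Pnlip, pancreatic lipase, had 11, 28 and 9 counts against 8, 26 and 10. Both neighbours overlapped between the groups while Ccdc172 between them did not.

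Within the body of Cdc20b lies Gpx8, a peroxidase of the endoplasmic reticulum, with 535, 576 and 2911 counts in WT libraries and 576, 642 and 2146 in the others (log2 fold change -0.06, SE 0.95). Ccno, a cyclin of multiciliated cells 44.3 kb away, had 181, 67 and 51 counts against 128, 43 and 50 (log2 fold change -0.26, SE 0.48). Neither passed the test, and in both the groups overlapped. On the strand opposite Kdm6bos, the demethylase gene Kdm6b had 1830, 5305 and 709 counts against 3134, 3838 and 871, a log2 fold change of 0.09 (SE 0.79). With the replicate block it was 0.37 (SE 0.20, edgeR adjusted p = 0.748). Kdm6b thus held reads in all lines where its antisense partner was low.

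Fxyd6, a neighbour of Fxyd2 in the same family at 6.98 kb, had 1135, 617 and 642 counts against 892, 514 and 296, a log2 fold change of -0.37 (SE 0.29), and on the other side of Fxyd2 Dscaml1, an adhesion molecule, had one of -0.16 (SE 0.51). St8sia3, a sialyltransferase 64.2 kb from Onecut2, had 10, 37 and 25 counts against 6, 16 and 8, lower in 3 of 3 pairs but with overlapping groups (log2 fold change -1.11, SE 0.79). Fech, an enzyme of haem synthesis on the other side of Onecut2, stood at 0.14 (SE 0.53). Neither Fxyd6 nor St8sia3 passed over all genes, with adjusted p of 1.0 in edgeR and of 0.741 with the replicate block for each.

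Postn, a matrix protein of fibroblasts 42.6 kb from Trpc4, had 4519, 1745 and 18868 counts against 6198, 2184 and 17701 (log2 fold change 0.24, SE 1.09). With the replicate block its log2 fold change was 0.40 (SE 0.12, edgeR adjusted p = 0.741). Trpv5, a calcium channel gene 3.71 kb from 1700034O15Rik, had 174, 215 and 73 counts against 168, 174 and 51 (log2 fold change -0.09, SE 0.57). Exoc3l4, 5.35 kb from A230065H16Rik, had 61, 23 and 63 counts against 33, 20 and 63 (log2 fold change -0.07, SE 0.67), and Cdc42bpb on its other side stood at 0.29 (SE 0.32). Beside C920025E04Rik the class Ib genes H2-T10 and H2-T22 stood at 0.69 (SE 0.87) and -0.03 (SE 0.63). The remaining nearest genes stood at 0.42 (Tmem88, SE 0.97) and -0.17 (Dnah2, SE 0.49) beside Kdm6bos, at 0.23 (BC067074, SE 0.51) beside Cdc20b, at 0.05 (Ufm1, SE 0.53) beside Trpc4 and at -0.23 (Gstk1, SE 0.36) beyond 1700034O15Rik. Gm10735 and BC023719, which overlap Cdc20b and C920025E04Rik, had too few reads to be tested. None of these passed, and for Postn, Trpv5 and Exoc3l4 the counts of lines differed more between replicate numbers than between groups.

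Relatives of the 9 genes by function were read from 6 lists, with 36 tested genes outside the 9. Their log2 fold changes were above 0 in 18 and below 0 in 18, with a median of 0.01, and 0 passed in edgeR, with the replicate block or in DESeq2. An unadjusted edgeR p under 0.05 was found in 0 without the block (0.210% of all tested genes) and in 3 with it (6.47% of all). The 3 were Fxyd6, Atp1b1 and Rfx3, with blocked log2 fold changes of -0.40, -0.27 and -0.40 and an adjusted p of 0.741 each. Other values given for relatives are without the block. Among 11 sodium pump and FXYD genes, 6 lay above 0 and 5 below. Their pump subunit gene Atp1b1 stood at 124 ± 3.10 CPM against 104 ± 5.22 CPM (SD, n = 3; log2 fold change -0.27, SE 0.16). In the list of TRPC channels and their partners 3 genes were tested besides Trpc4, with 1 above 0 and 2 below. The channel gene Trpc1 stood at -0.11 (SE 0.53) and Trpc4ap, which encodes a TRPC4-associated protein, at 0.09 (SE 0.20), and Trpc5 had 0 counts in all libraries.

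Among 5 tested CUT homeobox genes outside Onecut2, 4 lay above 0 and 1 below. Onecut3, the closest tested relative, had a log2 fold change of 0.32 (SE 0.80), Cux1 of 0.28 (SE 0.21), Cux2 of 0.26 (SE 0.51) and Satb1 of -0.23 (SE 0.40). Of 7 tested genes of the CDC20 family and of multiciliated cell regulation, 3 lay above 0 and 4 below. Foxj1, which switches on motile cilia genes, stood at 0.676 ± 0.161 CPM against 1.07 ± 0.0942 CPM (SD, n = 3; log2 fold change 0.67, SE 0.42), on the opposite side of 0 from Cdc20b. The cilia regulators Rfx2 and Rfx3 stood at 0.33 (SE 0.35) and -0.43 (SE 0.44), Fzr1, the other CDC20-like activator, at 0.15 (SE 0.22), and Gmnc had 0 counts in all libraries.

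The 3 tested tektins, partners of the flagellar protein class to which CCDC172 binds, gave 2 above 0 and 1 below. Tekt2 stood at 9.23 ± 3.20 CPM against 12.0 ± 9.93 CPM (SD, n = 3; log2 fold change 0.38, SE 0.61), and Tekt1 and Tekt5 at -0.54 (SE 0.46) and 0.15 (SE 0.61). Of 7 genes for adding or removing methyl groups at histone H3 lysine 27, 2 lay above 0 and 5 below. Eed, a core subunit of the methyltransferase complex, had a log2 fold change of -0.23 (SE 0.19), its catalytic subunit Ezh2 one of -0.07 (SE 0.27), and the demethylase genes Kdm6a and Uty ones of -0.13 (SE 0.26) and -0.22 (SE 0.27).

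Genes whose log2 CPM over the 6 libraries was most like that of each of the 9 were sought among tested genes with a mean of at least 1 CPM. For Ccdc172 these were Krt18, a keratin of simple epithelia (r = 0.975), and Napb, a vesicle fusion factor (0.963). Napb was also the most like Fxyd2, at 0.9998, yet stood at 16.1 CPM in WT lines and 10.98 CPM in the others. The r used here is Pearson's, which follows the relative spacing of the lines and not the size of the difference. Onecut2 was most like Ccdc172 (0.987) and then the chloride channel gene Ano1 (0.972), and Cdc20b was most like C920025E04Rik (0.979) and then Apol7d (0.976). Kdm6bos was most like Pou5f1, the pluripotency factor OCT4 (0.986), which had 8.03, 7.60 and 7.14 CPM in WT libraries and 5.55, 5.81 and 3.78 CPM in the others, and then Nhej1 (0.971). The sperm gene 1700034O15Rik was most like Ubxn10 (0.995) and Efhc2 (0.976), A230065H16Rik like Gm5601 (0.972) and Fam185a (0.951), C920025E04Rik like Pum2 (0.994) and Nek11 (0.980), and Trpc4 like Spns2 (0.996) and Bnc1 (0.993). With 13726 or more genes searched over 6 libraries that share depth and group, these values carry no test.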

How the data were processed

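Deposited values were raw read counts per gene for 6 libraries. They were made by the authors, per the file headers, with featureCounts 1.4.6-p4 over exons of GENCODE vM3 with strand setting 2, without options for multi-mapping reads; reads mapping to several places are therefore missing and genes with close copies are undercounted. STAR, FastQC and GRCm38.p3 are named in the submitters' processing notes; the aligner's version is not given in the sources used here. Gene coordinates are those of the files (GRCm38, 1-based).

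Tests were run with edgeR 4.0.16 (R 4.3.3): filterByExpr (15263 of 41053 genes kept), TMM scaling, glmQLFit (robust) and glmQLFTest over all 6 libraries, Benjamini-Hochberg adjustment over all tested genes, threshold 0.05. Groups were compared without a covariate, and passage with the group as covariate. Libraries were scaled by TMM for CPM too, and a prior count of 2 was used for log2 CPM. DESeq2 1.42.0, another scaling, no filter, a replicate block, other windows and leaving out each library were alternatives. Figures were drawn with matplotlib 3.10.9. P-values measure the spread between these subclones, which may be partly technical.

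The 9 genes, the lists and the tests were chosen with earlier results of these data known. Named besides the 9 were overlapping or nearest tested neighbours on each side, up to 4 genes per family list with the smallest p, and the 2 genes most like each of the 9. Exceptions, chosen after their values were seen, were Mpzl2 and Tnfsf12Tnfsf13, and Trpc5 and Gmnc at 0. Some genes that this rule names are not reported here.

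Replicate numbers in the titles pair the libraries: deviations from group means correlated at 0.596, 0.736 and 0.850 within numbers 1, 2 and 3 and at most at 0.0790 across numbers, above the bound of 0.1. The block took the biological coefficient of variation from 0.440 to 0.166. No libraries were duplicates.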

Additional observations from a re-analysis of the deposited data

How the results depend on the processing

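The count of genes that passed between the groups was 0 in edgeR, 4 with DESeq2 and 4 in the paired fit with the replicate block. It was 0 with the other scaling, without the filter on low counts and without each library in turn. The log2 fold changes of the 9 genes stayed below 0 in all 90 alternative values, as the choice of the genes required, so this supports nothing. They ran from -10.60 to -5.49 for A230065H16Rik and from -1.68 to -1.48 for Onecut2. Tested neighbours called were 0 under all 12 alternatives, windows of 100 and 1000 kb included. The median of the neighbours, 0.0263, ran from -0.0575 (without WT replicate 3) to 0.0874 (without WT replicate 2) over single libraries left out, and the replicate block changed no call among them.

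Genes called between passages were 3935 in edgeR, 3813 with the other scaling, 5111 with DESeq2 and 5264 without the filter. With 1 library left out they ranged from 283 without WT replicate 3 to 4068 without WT replicate 1, with 322 without Ephb2-KO replicate 3; each of the lower counts leaves passage 18 with 1 library, assumed to vary like the rest. With 1 library left out the passage difference changed sign in 4 of the 9 genes, ranging from -3.60 to 0.0526 for Fxyd2, -0.82 to 1.86 for Cdc20b, -0.24 to 2.10 for C920025E04Rik and -0.46 to 0.26 for Trpc4, and in 0 of the others. It ranged from 0.94 to 6.08 for A230065H16Rik and from -6.62 to -0.14 for Kdm6bos; the cause was not tested.

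Counting intervals of the pooled ratios lay above 1 for the 8 genes with reads in both groups. They use the counts by which the genes were chosen, so this supports nothing, and they do not cover the spread between lines. The filter on low counts keeps all 9 through their WT libraries, and 5 of the 9 had no Ephb2-KO library at its cutoff.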

Other observations

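Among the genes at least 4-fold apart with separate ranges were 4 outside the 9: Krt18, Zfp42, Pde1c and RP24-263F3.1, all named here after their values were seen. Krt18 had a log2 fold change of -4.35 and Zfp42 one of -8.27, a fitted value that depends on the prior count because all libraries labelled Ephb2-KO were at 0. Both passed with DESeq2 (adjusted p = 2.12e-06 and 0.00521), Krt18 also with the replicate block (adjusted p = 0.0270), and neither in edgeR without the block. Pde1c, a phosphodiesterase activated by calcium and calmodulin (chromosome 6, 56069821 to 56369634), had 162, 144 and 109 counts in the WT lines 1, 2 and 3 and 73, 3 and 17 in the Ephb2-KO lines 1, 2 and 3. Its levels were 4.83 ± 0.712 CPM and 1.01 ± 0.973 CPM (SD, n = 3). The 1 gene past 4-fold in the other direction was RP24-263F3.1 (chromosome 1, 93731104 to 93751072), with 9, 5 and 0 counts in WT libraries and 25, 11 and 14 in those labelled Ephb2-KO. Pde1c and RP24-263F3.1 passed in none of these fits.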
